A study of Mus musculus with 6 samples.

Results

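The genes described here encode chromatin remodelers, histone acetylation enzymes and bromodomain proteins, 77 of the 15705 genes with a score in mouse cortical neurons. They were chosen by gene symbol (the Smarc, Chd, Arid, Ino80, Baz, Hdac, Sirt, Kat, Brd and Brpf families, with Bptf, Pbrm1, Ep300, Ep400, Crebbp and Atrx), so the one thing the choice required of the measurements was a row in the table of scores. The families themselves were picked with results of the same comparison known, so counts over the 77 genes are a description and are read against all genes. By role, 39 were counted as remodelers, 18 as deacetylases, 5 as acetyltransferases, 9 as bromodomain proteins and 6 as other genes with an ARID domain, a DNA-binding fold. The study asked how disturbance of U1 snRNP, as seen in Alzheimer's disease, affects splicing and neurons.

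Neurons came from C57BL/6 embryos at embryonic day 18 and received lentivirus after 7 days in culture, for 3 days. The control virus, FCK1.3GW, carried EGFP, a green fluorescent protein, under a short CaMKII promoter, which drives expression mainly in excitatory neurons. The other virus, FCK1.3GW-N40K, carried N40K in its place, the N-terminal fragment of the U1-70K protein of U1 snRNP. Both constructs also held a woodchuck hepatitis virus element and long terminal repeats, and the share of cells that took up virus is not given in the sources used here. Each group had 3 libraries of poly(A) RNA. Nothing in the labels says that these were separate cultures, and the p-values below therefore reflect the spread among these libraries alone, which could be technical.

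Chromatin remodelers use ATP to slide, evict or exchange nucleosomes and fall into the SWI/SNF, ISWI, CHD and INO80 families. Acetyltransferases add acetyl groups to histone tails, deacetylases remove them, and bromodomains bind acetylated lysine. In neurons these proteins control activity-dependent transcription, and mutations in many of their genes cause developmental disorders of the brain. The intron starts of their transcripts, like those of most others, are recognised by U1 snRNP.

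The deposited value is the Sd score, taken here to mean splicing deficiency. It is a linear ratio per gene and library, and scores of this kind are commonly higher where splicing is less complete. Neither its formula nor its read depth is given in the sources used here, and it cannot separate more unspliced from less spliced RNA, or a change in each cell from a change in the share of cells of a type. Library medians over all genes ran from 0.0127 to 0.0136 in the controls and from 0.0146 to 0.0163 with N40K. A score is not an expression level, so cell identity could be checked only by which markers had a row. These were 8 of 9 neuron, 4 of 4 astrocyte, 3 of 4 microglia and 3 of 4 oligodendrocyte lineage markers, so defining genes of glia were also measured. In the same limma fit as below, 2 of the 8 neuron markers with a score were called, Syn1 and Camk2a, both higher with N40K (adjusted p = 0.0282 and 0.0132). None of the 4 astrocyte markers was called, and their groups overlapped. Of the 6 other glial markers, 3 were called without overlap: the microglial Itgam scored 0.0085, 0.0168 and 0.0088 in controls and 0.0280, 0.0263 and 0.0381 with N40K (0.0174), and Csf1r 0.0058, 0.0083 and 0.0058 against 0.0202, 0.0215 and 0.0132 (0.0131). Mog, of oligodendrocytes, was lower, at 0.1225, 0.1217 and 0.1093 in controls and 0.0816, 0.0921 and 0.0839 with N40K (0.0195). The part of glia in the results below was not tested.

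With N40K the scores of 21 of the 77 chromatin genes rose and none fell. "Rose" and "fell" refer to an adjusted p under 0.05 in limma with Benjamini-Hochberg adjustment over all genes, on log2(score + 0.01). The share that rose was 27.3%, where 21.5% of all genes rose, and 0% fell, where 4.11% of all genes fell. The higher share of rises did not hold under other scalings or without most single libraries, as given below. At an unadjusted p under 0.05 in limma, Ino80c alone of the 77 was lower, where 7.32% of all genes were lower. The 2 groups did not overlap, with N40K on top, for 34 chromatin genes (44.2%, against 33.6% of all genes) and with N40K below for 2, Kat5 and Ino80c (2.6%, against 8.67%). The ratio of mean scores, N40K over control, had a median of 1.18 over the 77 genes and 1.11 over all genes, and among the 21 rises it ran from 1.26 to 2.22.

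The rises were spread unevenly over the roles. Among remodelers 14 of 39 rose, among other ARID genes 2 of 6, among acetyltransferases 2 of 5, among deacetylases 2 of 18 and among bromodomain proteins 1 of 9. Median ratios were 1.26, 1.37, 1.24, 1.1 and 1.13 in the same order. The classes also differed in gene length and in control score: remodelers had a median length of 73.5 kb and a median control score of 0.0062, deacetylases 24.3 kb and 0.0167. The class of bromodomain proteins held Brd and Brpf genes only, so its count is not one of all bromodomain genes. Bptf, Pbrm1, Smarca4, Crebbp and Ep300 also encode bromodomains, were counted in other roles and rose. Smarca2, Kat2a, Kat2b and the Baz genes do so too and were not called. The difference between classes was not tested.

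**Figure D1:**
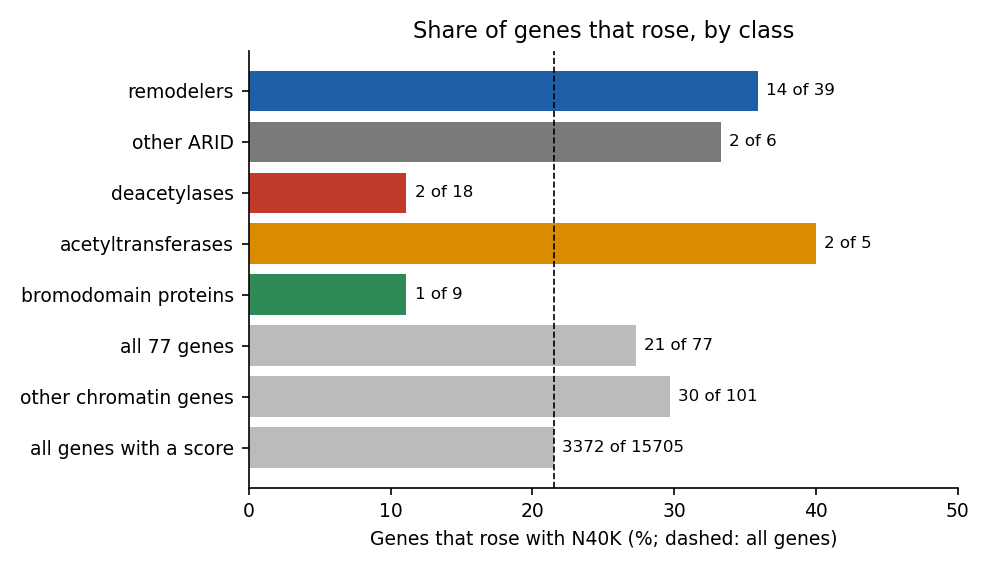
Share of genes that rose with N40K (x axis, percent), by role (bars, with counts beside them); the dashed line is the share of all genes. Remodelers (14 of 39) and acetyltransferases (2 of 5) lay above the line at 21.5%. Deacetylases (2 of 18) and bromodomain proteins (Brd and Brpf genes only, 1 of 9) lay below it. Under centring of each library on its median the rises in these roles were 5, 1, 0 and 0 in the same order. That was 12.8%, 20%, 0% and 0%, beside 9.75% of all genes.

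SWI/SNF genes held some of the clearest rises, in 5 of 13 (38.5%), beside 21.5% of all genes. Arid1b, whose protein is a DNA-binding subunit of the BAF form of the complex and whose loss of one copy causes Coffin-Siris syndrome, scored 0.0013, 0.0013 and 0.0011 in the control libraries and 0.0024, 0.0030 and 0.0028 with N40K. Every N40K value was above every control value, and the ratio of means, 2.22, was the highest of the 77 genes (adjusted p = 0.00441). Arid2, a subunit of the PBAF form, scored 0.0099, 0.0093 and 0.0105 in controls and 0.0144, 0.0162 and 0.0173 with N40K, a ratio of 1.61 and a log2 change of 0.38 ± 0.06 (SE; adjusted p = 0.00942). Pbrm1, the polybromo subunit of PBAF, scored 0.0036, 0.0032 and 0.0032 in controls and 0.0043, 0.0049 and 0.0054 with N40K (ratio 1.46, adjusted p = 0.0206). The groups did not overlap for any of these 3 genes. Smarca4, the BRG1 ATPase, rose from 0.0027, 0.0023 and 0.0027 to 0.0035, 0.0035 and 0.0041 (ratio 1.44, adjusted p = 0.0194). Arid1a, the counterpart of Arid1b in BAF, rose from a mean of 0.0041 ± 0.0003 to 0.0056 ± 0.0007 (SD, n = 3; ratio 1.37, adjusted p = 0.0443).

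The other 8 SWI/SNF genes were not called. Smarca2, the BRM ATPase that replaces BRG1 in some complexes, had scores of 0.0023, 0.0021 and 0.0022 in controls and 0.0025, 0.0026 and 0.0027 with N40K, a small shift without overlap (ratio 1.18, adjusted p = 0.0574). The scaffold gene Smarcc1, the lowest score of all 77 genes, was 0.0009 in each control library and 0.0010, 0.0012 and 0.0016 with N40K, where the last decimal limits precision. Its partner Smarcc2 stood at 0.00373 and 0.0038 (ratio 1.02). The core subunit Smarcb1 had means of 0.0158 and 0.0146, and Smarcd1, Smarcd2, Smarcd3 and Smarce1 had ratios between 0.958 and 1.09. The calls of Arid1b and Arid2 held with any library left out. Pbrm1 was not called when Control 2, Control 3 or N40K 2 was removed (highest adjusted p = 0.0751), nor Smarca4 when any control was removed (0.065), nor Arid1a when any library other than N40K 1 was removed (0.131). With each library centred on its median, Arid2 kept its call (0.0138) and Arid1b, Pbrm1 and Arid1a lost theirs (0.234, 0.43 and 0.763). Smarca4 lost its call there too and its direction turned (-0.01, 0.857).

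Among ISWI genes, 1 of 7 rose (14.3%), beside 21.5% of all genes. Bptf, the largest subunit of the NURF complex and a reader of methylated histone tails, scored 0.0074, 0.0064 and 0.0059 in controls and 0.0114, 0.0138 and 0.0141 with N40K. The lowest N40K value was well above the highest control, and the log2 change of 0.48 ± 0.06 (SE; ratio 1.99, adjusted p = 0.00622) held with any library left out and under every scaling. The other 6 had ratios above 1 but were not called. Baz2b, a bromodomain partner of ISWI, scored 0.0042, 0.0032 and 0.0031 in controls and 0.0042, 0.0067 and 0.0066 with N40K, so that N40K 1 equalled a control (adjusted p = 0.0707). The ISWI ATPase genes Smarca5 and Smarca1 had ratios of 1.3 and 1.15, and Baz1a and Baz1b, the latter lost in Williams syndrome, 1.23 and 1.27. Baz2a, the large subunit of the complex that silences ribosomal RNA genes, had by far the highest score of the 77 genes, 0.9463, 0.8653 and 0.8580 in controls and 1.0249, 1.0477 and 1.0815 with N40K. Its groups did not overlap, and its ratio was 1.18 (adjusted p = 0.0954).

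The CHD family of helicases had the most rises, in 6 of 10 genes (60%), beside 21.5% of all genes. The median length of the 10 was 63.6 kb, and 41.4% of all genes of at least 60 kb rose. Chd1, which binds methylated histone tails at active genes, scored 0.0085, 0.0074 and 0.0079 in controls and 0.0119, 0.0142 and 0.0150 with N40K, a log2 change of 0.40 ± 0.06 (SE; ratio 1.73, adjusted p = 0.00964). Chd2, mutated in a childhood epilepsy, scored 0.0063, 0.0061 and 0.0061 in controls and 0.0082, 0.0115 and 0.0112 with N40K (ratio 1.67, adjusted p = 0.0228). Chd7, the gene of CHARGE syndrome, scored 0.0077, 0.0063 and 0.0069 in controls and 0.0093, 0.0114 and 0.0116 with N40K (ratio 1.55, adjusted p = 0.0203). In all 3 genes N40K 1 was the lowest N40K library and still above every control. Chd6 rose from 0.0062 ± 0.000458 to 0.00913 ± 0.000709 (SD, n = 3; ratio 1.47, adjusted p = 0.0132). Chd5, expressed mainly in neurons, rose by a ratio of 1.26 from 0.0032, 0.0034 and 0.0035 to 0.0043, 0.0040 and 0.0044 (adjusted p = 0.0245). Chd1l, a remodeler recruited to DNA damage and named here after its value was seen, had the same ratio (adjusted p = 0.0401).

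The NuRD remodelers Chd3 and Chd4 were not called. Chd4 scored 0.0340, 0.0312 and 0.0335 in controls and 0.0338, 0.0317 and 0.0350 with N40K, with full overlap, and Chd3 had means of 0.0056 and 0.00523 (ratio 0.935). Chd8, a gene linked to autism, stood at 0.0288 ± 0.000351 and 0.0312 ± 0.00185 (SD, n = 3; adjusted p = 0.374), and Chd9 at a ratio of 0.896. In their transcripts with the most exons Chd3, Chd4, Chd8 and Chd9 have 37 to 39 introns, and the 6 genes that rose have 22 to 41. The call of Chd1 held with any library left out and under every scaling. Removing Control 2 or Control 3 took Chd6 past the threshold (highest adjusted p = 0.0507), and removing any of these, N40K 2 or N40K 3 did so for Chd7 (0.071). Chd2 lost its call without any library other than N40K 1 (0.0768), Chd5 without any control library or N40K 3 (0.0863) and Chd1l without any single library (0.111). With each library centred on its median, Chd7 and Chd2 kept their calls (0.0412 and 0.0496), and Chd6 and Chd1l lost theirs (0.1 and 0.731). Chd5 lost its call and turned in direction there (-0.04, 0.418), on log2(score + 0.01), which understates changes of low scores such as its own.

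Of 6 genes of INO80 and p400, Ep400 alone rose. It encodes the ATPase of the TIP60 complex, which exchanges histone variants, and scored 0.0043, 0.0041 and 0.0040 in controls and 0.0058, 0.0061 and 0.0063 with N40K (ratio 1.47, adjusted p = 0.0054). The spread within each group was small beside the gap between them, and the call held with any library left out, but it ended with each library centred on its median (0.207). Ino80, the ATPase of the INO80 complex, scored 0.0058, 0.0057 and 0.0052 in controls and 0.0066, 0.0074 and 0.0090 with N40K, without overlap, and just missed the threshold (ratio 1.38, adjusted p = 0.0619). Ino80c, an accessory subunit, went the other way: 0.0041, 0.0049 and 0.0034 in controls and 0.0020, 0.0032 and 0.0025 with N40K, the lowest ratio of the 77 genes at 0.621 (adjusted p = 0.0602). It passed as a fall with each library centred on its median, on the median deviation, or quantile normalized. Ino80b, Ino80d and Ino80e had ratios of 0.788, 0.923 and 1. Atrx, a remodeler that loads a replacement histone at repeats and is mutated in an intellectual disability syndrome, scored 0.0016, 0.0017 and 0.0016 in controls and 0.0026, 0.0035 and 0.0047 with N40K. Its ratio of 2.2 was second to that of Arid1b, with a wide spread among N40K libraries (adjusted p = 0.0331). Without any one control library or N40K 2 Atrx was no longer called (highest adjusted p = 0.0984), nor after median centring of the libraries (0.117). Smarcad1 and Smarcal1, of the same helicase superfamily, had ratios of 1.29 and 1.13 and were not called.

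**Figure D2:**
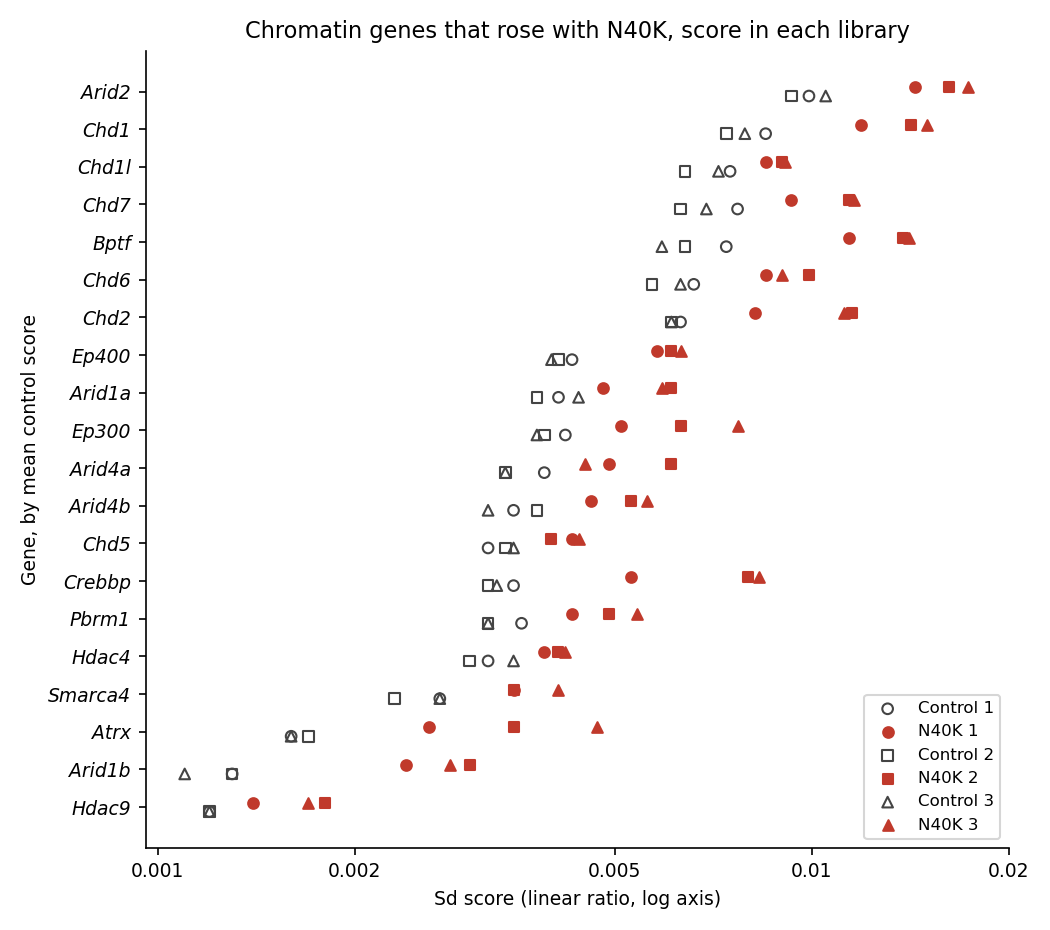
Sd score of each library (x axis, linear ratio on a log scale) for 20 of the 21 chromatin genes that rose (y axis, ordered by mean control score); open grey symbols are control libraries, filled red symbols N40K libraries, and the shape gives the replicate number. All N40K points lie to the right of all control points in each gene, and N40K 1 is often the leftmost of the N40K points; after median centring of the libraries the direction of Smarca4, Chd5, Hdac4 and Hdac9 turned.

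The other ARID genes were counted apart from the remodeler subunits. Arid4a and Arid4b, which belong to a Sin3 deacetylase complex, moved alike: Arid4b rose from 0.0035, 0.0038 and 0.0032 to 0.0046, 0.0053 and 0.0056 (ratio 1.48, adjusted p = 0.0174), and Arid4a, named after its value was seen, from 0.0039, 0.0034 and 0.0034 to 0.0049, 0.0061 and 0.0045 (ratio 1.45, adjusted p = 0.0455). Arid4b was not called when Control 1, Control 3 or N40K 2 was removed (highest adjusted p = 0.065), and Arid4a without any library other than N40K 3 (0.133). Both lost it with each library centred on its median (0.444 and 0.709). Arid5a, which also binds RNA, had one of the larger ratios without a call, 1.59, from 0.0377, 0.0372 and 0.0237 to 0.0489, 0.0488 and 0.0587 (adjusted p = 0.0537). Control 3 was lower than the other controls in this gene. Arid3a, Arid3b and Arid5b had ratios of 0.933, 1.3 and 1.14 with overlapping groups.

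Deacetylases had a median ratio of 1.1, close to the 1.11 of all genes, and the 2 rises were in class IIa. Proteins of this class, encoded by Hdac4, Hdac5, Hdac7 and Hdac9, shuttle between cytoplasm and nucleus with neuronal activity. Hdac4 scored 0.0032, 0.0030 and 0.0035 in controls and 0.0039, 0.0041 and 0.0042 with N40K, a ratio of 1.26 (adjusted p = 0.0314). Hdac9 scored 0.0012 in each control and 0.0014, 0.0018 and 0.0017 with N40K (ratio 1.36, adjusted p = 0.0478). The groups did not overlap in either gene. Hdac5, at 0.0102, 0.0099 and 0.0099 in controls and 0.0117, 0.0120 and 0.0136 with N40K, had no overlap and missed the threshold (ratio 1.24, adjusted p = 0.0572), and Hdac7 had equal means (ratio 1). Removing Control 1, Control 2, N40K 2 or N40K 3 ended the call of Hdac4 (highest adjusted p = 0.0978), and removing any library other than N40K 1 ended that of Hdac9 (0.129). With each library centred on its median both directions turned (-0.04 and -0.08), and for Hdac9 also with centring on the median deviation (-0.01). These turns were on log2(score + 0.01), which understates changes of low scores. The ratios of both genes, 1.26 and 1.36, were above the median of 1.11 for all genes.

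None of the 4 class I enzymes, mostly nuclear deacetylases of co-repressor complexes, was called, and 0 had an unadjusted p under 0.05 in limma. Hdac1 scored 0.0213, 0.0180 and 0.0172 in controls and 0.0202, 0.0244 and 0.0227 with N40K (adjusted p = 0.2), Hdac2 0.0148, 0.0144 and 0.0143 against 0.0168, 0.0156 and 0.0145 (0.446), and Hdac3, the enzyme of the NCoR complex, had means of 0.0071 and 0.00773 (0.453). Groups overlapped in each of them, and Hdac8 had a ratio of 0.97. Hdac6, which acts on tubulin, had means of 0.066 and 0.0655. Hdac10 had the highest score among deacetylases, 0.2525, 0.2437 and 0.2556 in controls and 0.3089, 0.2475 and 0.2231 with N40K, where the N40K libraries spread to both sides of the controls. Hdac11 had the lowest ratio of the class, 0.759 (adjusted p = 0.149), and passed as a fall after quantile normalization and after centring on the library median.

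Of the 7 sirtuins, which are NAD-dependent deacetylases, 0 were called by limma, with adjusted p-values from 0.137 to 0.969, and 0 had an unadjusted p under 0.05. Sirt1, the nuclear enzyme, scored 0.0303, 0.0296 and 0.0311 in controls and 0.0313, 0.0406 and 0.0302 with N40K, where N40K 2 stood apart and the others lay within the control range or close to it. Sirt2, which acts on tubulin, was nearly identical in all libraries, 0.0254, 0.0251 and 0.0251 against 0.0247, 0.0251 and 0.0255. The mitochondrial sirtuin genes Sirt3, Sirt4 and Sirt5 had ratios of 1.07, 1.26 and 1.19, and Sirt6 and Sirt7, both nuclear, 1.18 and 1.11. Only Sirt4 of these had groups without overlap, with control scores of 0.0972, 0.0776 and 0.1085 and N40K scores of 0.1207, 0.1103 and 0.1261.

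Of the 5 acetyltransferases that the symbols matched, the paralogs Crebbp and Ep300 rose. They encode CBP and p300, coactivators that acetylate histones at enhancers and bind CREB during neuronal activity, and CBP is the gene product lost in Rubinstein-Taybi syndrome. Crebbp scored 0.0035, 0.0032 and 0.0033 in controls and 0.0053, 0.0080 and 0.0083 with N40K, a log2 change of 0.36 ± 0.07 (SE; ratio 2.16, adjusted p = 0.0177). Ep300 scored 0.0042, 0.0039 and 0.0038 in controls and 0.0051, 0.0063 and 0.0077 with N40K (0.23 ± 0.06; ratio 1.61, adjusted p = 0.0398). Controls were tight in both genes, and N40K 1 was the lowest N40K library in both. Kat2b, the PCAF gene, shifted from 0.0054, 0.0049 and 0.0043 to 0.0056, 0.0068 and 0.0057 without a call (adjusted p = 0.124). Its paralog Kat2a, the GCN5 gene, had means of 0.0456 and 0.0443. Kat5, the catalytic subunit of TIP60, scored 0.0702, 0.0710 and 0.0722 in controls and 0.0663, 0.0636 and 0.0635 with N40K, lower in every library but not called (ratio 0.906, adjusted p = 0.207); it passed as a fall with a variance model without a trend. Removing any control library or N40K 2 ended the call of Crebbp (highest adjusted p = 0.0633), and removing any library other than N40K 1 ended that of Ep300 (0.118). With each library centred on its median Crebbp kept its call (0.026) and Ep300 lost it (0.128). Myst1 to Myst4 and Hat1 also encode acetyltransferases but have other symbols, so they were counted with the other chromatin genes. Of these Myst3 and Myst4 rose (ratios 2.15 and 1.59), and Myst1, Myst2 and Hat1 were not called (1.02, 1.06 and 1.16). The call of Myst4 ended without any library other than N40K 1, and with median centring of the libraries.

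Bromodomain proteins read acetylated chromatin, and the 8 genes described here were not called. Brd2, a regulator of transcription, scored 0.1480, 0.1493 and 0.1484 in controls and 0.1514, 0.1513 and 0.1453 with N40K (ratio 1.01), and Brd3 had means of 0.0122 and 0.011. Brd7, a PBAF subunit, scored 0.0054, 0.0055 and 0.0063 in controls and 0.0068, 0.0071 and 0.0076 with N40K and missed the threshold narrowly (ratio 1.25, adjusted p = 0.0515). Brd9, of a further SWI/SNF form, had a ratio of 0.885. Brd8, of the TIP60 complex, had a ratio of 1.21, and Brpf1, Brpf3 and Brd1, scaffolds of MYST acetyltransferases, had ratios of 1.29, 0.934 and 1.13.

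**Figure D3:**
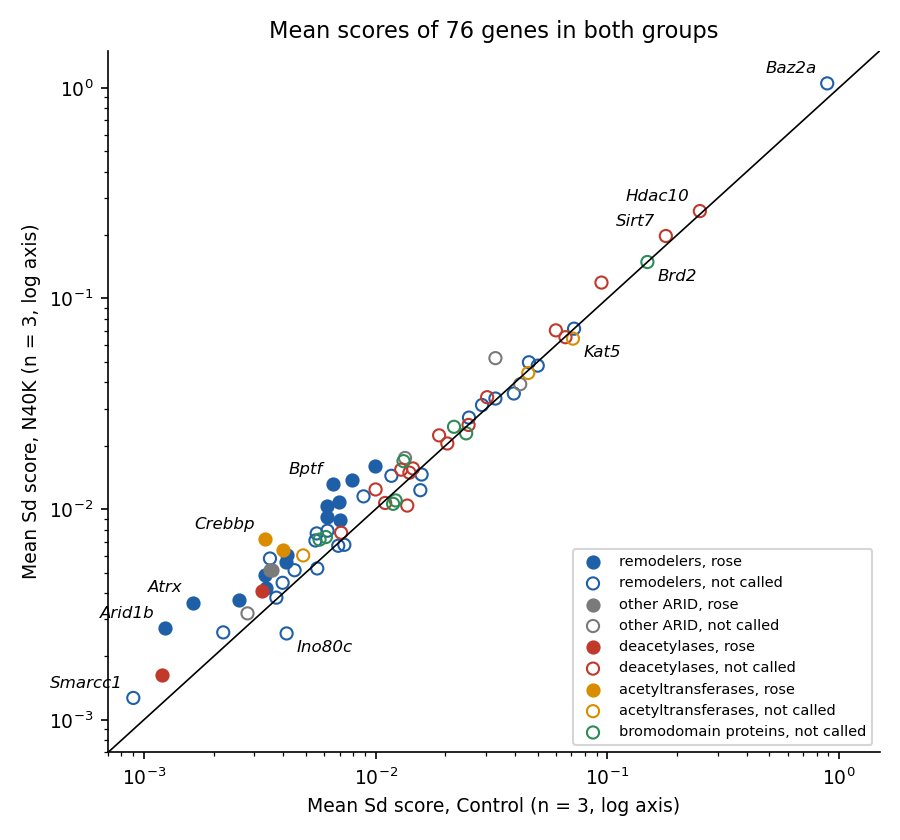
Mean Sd score with N40K (y axis) against mean Sd score in controls (x axis), both on log scales, n = 3 per group, for 76 genes; colour gives the role, filled points rose, open points were not called, and the line marks equal means. Filled points all have control means of at most 0.0099 and lie above the line, while Baz2a, Hdac10, Sirt7 and Brd2 at the top lie on or near it.

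Levels in the controls spanned from 0.0009 for Smarcc1 to 0.89 for Baz2a, with a median of 0.00887. After Baz2a came Hdac10 at 0.251, Sirt7 at 0.179 and Brd2 at 0.149, and the 4 genes were set apart beyond their replicate spread. How the score treats gene length is not given in the sources used here, so the order of genes is a description. Across the 77 genes, which are not independent replicates, Spearman's rho was -0.69 between control score and gene length and 0.54 between ratio and length. It was -0.56 between ratio and control score, where the control score is also the denominator of the ratio, which by itself favours a negative value. Over the 14912 genes with a length, the values with length were -0.60 and 0.39.

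The genes that rose were long and had low control scores. Their median length was 106 kb and their shortest, Chd1l, 49.5 kb, against a median of 30.4 kb for the 56 others. At least 60 kb, a boundary set after seeing the data, were 33 of the 77 genes, of which 19 rose (57.6%), where 41.4% of all genes of that length rose. Of the 44 shorter ones 2 rose (4.55%, against 15.1% of all such genes). Within the longer genes 12 of 21 remodelers, 2 of 4 deacetylases (Hdac4 and Hdac9; not Hdac8 or Sirt1), 2 of 3 acetyltransferases and 2 of 3 other ARID genes rose. None of the 37 genes with a control mean of 0.01 or more rose, against 21 of the 40 below it. Of all genes 36.4% rose where that mean was under 0.005, 27.3% from there to 0.01, 18.3% from 0.01 to 0.03 and 8.72% above. In the lowest of these bands 14 of 23 chromatin genes rose and in the next 7 of 17. Length and control score moved together, and their parts in the result were not told apart. Long genes without a rise included Chd9 at 226 kb (ratio 0.896), Hdac8 at 221 kb (0.97) and Ino80d at 156 kb (0.923).

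**Figure D4:**
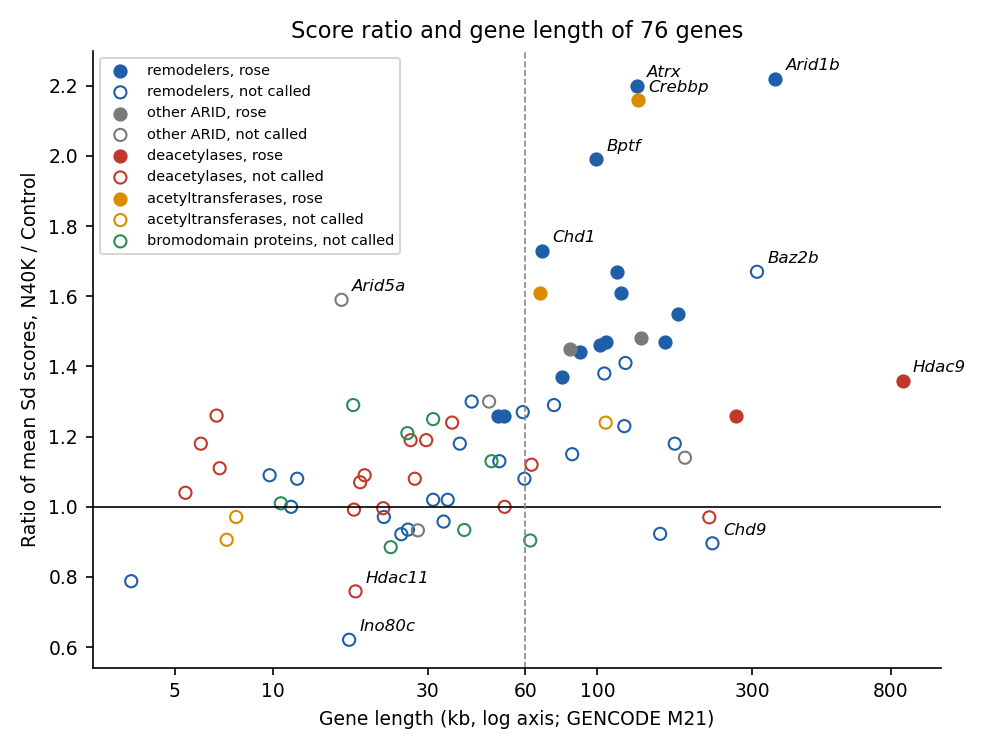
Ratio of mean Sd scores, N40K over control (y axis), against gene length in kb (x axis, log scale) for 76 genes; colours and fill as in the plot of mean scores, the horizontal line is a ratio of 1 and the dashed line is 60 kb. 18 of the 20 filled points lie at or beyond 60 kb, and Ino80c and Hdac11 have the lowest ratios.

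By annotation, 48 of the 77 genes overlap another gene, 17 of the 21 that rose and 31 of the 56 others. The share over all genes is not given here, and the genes that rose were longer, so no link of overlap with a rise is read from these counts. Of the 17, Pbrm1 overlaps Gnl3 and Smim4 and Arid4b overlaps Ggps1, all on the other strand. Whether the score used strand is not given in the sources used here, so reads of such partners cannot be told apart from those of the gene. Bptf, Chd1, Chd7 and Arid4a overlap none.

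Libraries did not respond evenly. N40K 1 was strictly the lowest N40K library in 18 of the 21 genes that rose (85.7%), compared with 61.8% of all genes that rose. The median score of the 21 genes was 0.0039, 0.0038 and 0.0035 in the controls and 0.0049, 0.0061 and 0.0059 with N40K. Without N40K 1, 25 chromatin genes rose, with Baz2b, Ino80, Smarcc1, Smarcad1, Baz1b and Smarca2 added and Arid4a and Chd1l lost. That was 32.5%, against 23.7% of all genes. Without Control 1, 2 or 3 the rises were 8, 6 and 6, which is 10.4%, 7.79% and 7.79% of the chromatin genes, below the 12.9%, 10.3% and 10.4% of all genes that rose there. Without N40K 2 the 8 rises (10.4%) were also below the share of all genes, 13.3%, and without N40K 3 the 12 rises (15.6%) were close to it, 15.1%. Of the remodelers alone 20.5%, 12.8% and 12.8% rose without Control 1, 2 or 3. That share was 20.5% without N40K 2 and 23.1% without N40K 3, above all genes each time. The calls of 5 genes, Arid1b, Arid2, Bptf, Chd1 and Ep400, held whichever library was left out.

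The balance of rises and falls depended on scaling between libraries. With each library centred on its median, which removed a shift of 0.13 (log2) from all genes, 6 chromatin genes rose and 6 fell (7.79% each), where 9.75% of all genes rose and 18.4% fell. After quantile normalization 10 rose (13%) and 5 fell (6.49%), beside 12.9% and 12% of all genes. After centring on the median of the genes' deviations 11 rose (14.3%) and 2 fell (2.6%), beside 14.2% and 9.67%. The share of rises over the 77 genes was thus below or close to that of all genes under the 3 scalings, and the share of falls was lower than theirs. Of the remodelers alone 12.8%, 23.1% and 25.6% rose and 10.3%, 7.69% and 5.13% fell in the same order. Deacetylases had 0 rises under each scaling. The difference between roles was not tested. Arid2, Bptf, Chd1, Chd2, Chd7 and Crebbp rose under all 3. The falls were in Ino80c and Chd3 in each of them, and in Hdac11, Brd3 and Smarcc2 in the first 2, with Smarcc1 in the first. Smarcc1 had a ratio of mean scores of 1.41, and its fall was on log2(score + 0.01), which understates changes of low scores. The median log2 change of the 77 genes was 0.11 as deposited and -0.02, 0.00 and 0.04 in the same order, beside 0.06, -0.07, -0.02 and -0.01 for all genes.

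**Figure D5:**
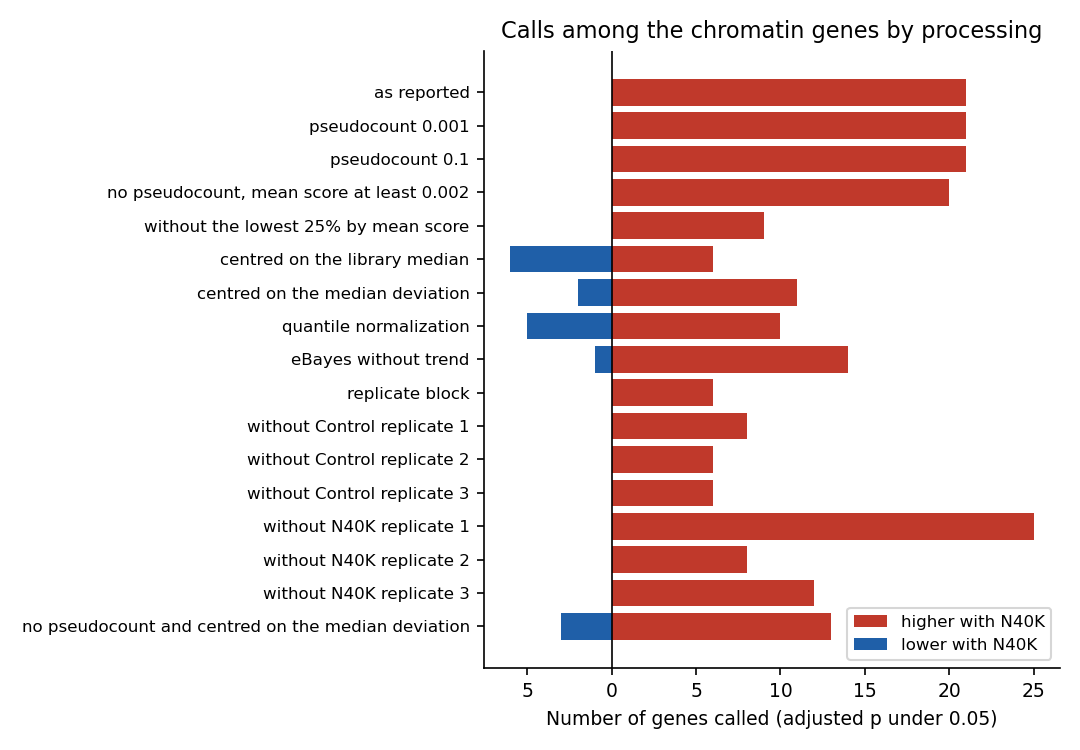
Number of the chromatin genes called (x axis) higher (red, to the right) or lower (blue, to the left) with N40K under each way of processing (y axis), adjusted p under 0.05 in limma. Rises number 21 as reported and between 6 and 25 elsewhere, and falls reach 6 with each library centred on its median.

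Partners of these proteins, and more genes of the same roles under other symbols, were counted alongside. The list held 105 symbols, of which 101 had a score. Of these, 30 rose (29.7%) and 1 fell (0.99%), against 21.5% and 4.11% of all genes, with a median ratio of 1.16. With each library at its median 10 rose (9.9%) and 18 fell (17.8%), close to all genes. Ss18l1, the neuronal BAF subunit CREST, rose from 0.0066, 0.0064 and 0.0061 to 0.0110, 0.0130 and 0.0128 (ratio 1.93, adjusted p = 0.00397). Btaf1, an ATPase that removes the TATA-binding protein from DNA, rose from 0.0123, 0.0110 and 0.0105 to 0.0198, 0.0240 and 0.0235 (ratio 1.99, 0.00498). The co-repressor gene Ncor1 and the acetyltransferase gene Myst3 rose by ratios of 1.78 and 2.15. Uchl5, a deubiquitinase that also sits in INO80, fell from 0.0153, 0.0143 and 0.0159 to 0.0113, 0.0105 and 0.0116 (ratio 0.734, 0.0184), which was no longer called when Control 1, Control 3 or N40K 2 was removed (highest 0.0653). The rises held with any library left out, and under the 3 scalings, for Ss18l1, Btaf1, Ncor1 and Myst3.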

How the data were processed

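RNA was measured in 6 libraries, 3 per group, as stranded poly(A) libraries read as pairs of 100 nt, per the labels' protocols. CASAVA, STAR, BWA, bedtools 2.16.1 and the build mm9 appear, without roles, in the submitters' processing notes. The authors' deposited table holds Sd scores, linear ratios with 4 decimals from 0.0001 to 2886.7. Its formula, filters, depth and handling of strand were not given in the sources used here. No interval that needs depth is printed. 0 columns of values were unused and no columns were identical.

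In R 4.3.3, limma 3.58.1 compared the groups on log2(score + 0.01) (lmFit, eBayes with trend, 2-sided, Benjamini-Hochberg over 15705 genes, threshold 0.05). The filter (a score in all libraries, above 0 in at least 3) removed no gene. Fold changes on this scale understate changes of low scores, so ratios of mean scores are given. The members and lists were chosen with earlier results of these data known.

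Genes were named by rule: up to 14 rises and 8 falls with the smallest p, the highest and lowest control score of each role, 29 fixed genes, and up to 4 rises and 4 falls among the other chromatin genes. 1 member is counted in the totals and not reported singly here. Members outside the rule were named after their values were seen. Lengths, introns and overlaps came from GENCODE M21, on another build than mm9, matched by identifier for 14911 genes (94.9%) and by symbol for Hdac4; no coordinates are printed. Alternatives covered pseudocounts of 0.001, 0.1 and none, filters, scaling, the variance trend, a replicate block and each library left out.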

Additional observations from a re-analysis of the deposited data

How the results depend on the processing

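Pseudocounts of 0.001 and 0.1, no pseudocount and no filter gave 20 or 21 rises and 0 falls among the 77 genes. Of all genes 20.5% to 22.3% rose and 3.9% to 4.19% fell in these settings. At 0.1 the deacetylases had 1 rise and the bromodomain proteins 2. Leaving out the 25% of genes with the lowest mean score, 58 chromatin genes were tested, so fewer could be called. Of these 9 rose (15.5%), 8 remodelers and 1 acetyltransferase, with 0 in the other roles. Over all 11773 genes tested there 1968 rose (16.7%, 2451 called), and 14 other chromatin genes rose (15 called). With each library centred on its median 6 rose and 6 fell (12 called): 5 and 4 remodelers, 0 and 1 deacetylases, 1 and 0 acetyltransferases, 0 and 1 bromodomain proteins and 0 other ARID genes. There 10 other chromatin genes rose and 18 fell, as did 1531 and 2883 of all genes. Centring on the median deviation gave 11 and 2 (13 called): 10 and 2 remodelers, 1 acetyltransferase and 0 rises elsewhere, with 18 and 9 other chromatin genes and 2235 and 1518 of all genes. Quantile normalization gave 10 and 5: 9 and 3 remodelers, 1 acetyltransferase, 0 rises elsewhere and 1 fall each in deacetylases and bromodomain proteins, with 15 and 14 other chromatin genes and 2022 and 1883 of all genes. Centring on the median deviation without a pseudocount, chosen after seeing the data, gave 13 and 3 of 74 genes. That was 17.6% and 4.05%, beside 15.3% and 8.4% of all genes tested there. Remodelers, deacetylases and bromodomain proteins had 1 fall each. Other ARID genes had 1 rise, and deacetylases and bromodomain proteins 0. Other chromatin genes gave 19 and 5, and all genes 2190 and 1202.

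Without a variance trend 14 rose (18.2%) and 1 fell (1.3%), beside 16.8% and 3.43% of all genes. The rises were in 11 remodelers and 1 each of the other ARID genes, deacetylases and acetyltransferases, with 0 in bromodomain proteins. The fall was in 1 acetyltransferase. Some genes called as reported or under a scaling turned in direction. With each library centred on its median these were Smarca4 (-0.01), Chd5 (-0.04), Hdac4 (-0.04), Hdac9 (-0.08), Smarcc1 (-0.08) and Smarcc2 (-0.12). Centring on the median deviation also turned Hdac9 (-0.01), Smarcc1 (-0.02) and Smarcc2 (-0.06), and quantile normalization turned Smarcc2 (-0.08). Smarcc1 passed as a fall with median centring, and Smarcc2 with median centring and quantile normalization. All these turns and falls were on log2(score + 0.01), which understates changes of low scores. The ratio of mean scores was 1.41 for Smarcc1 and 1.02 for Smarcc2, beside a median of 1.11 for all genes. With a library left out, rises among the 77 genes ran from 6 to 25, and falls were 0 in each case. By role they ran from 5 to 19 for remodelers, 0 to 2 for other ARID genes, 0 to 2 for deacetylases, 0 to 2 for acetyltransferases and 0 to 1 for bromodomain proteins. Other chromatin genes had 10 to 32 rises and 0 to 1 falls (10 to 33 called), and all genes 1613 to 3729 rises and 303 to 486 falls (1947 to 4215 called).

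Replicate numbers are shared between groups, but nothing in the labels says that a number marks a shared culture, and deviations of same-numbered libraries correlated at -0.0712, 0.0376 and -0.0201, so the numbers were not taken as pairs. With the replicate number as a block 6 of the 77 genes rose (7.79%) and 0 fell, beside 11.3% and 2.09% of all genes. All 6 were remodelers (15.4% of that role), with 0 rises in the other roles. In that fit 13 other chromatin genes rose and 0 fell, as did 1770 and 328 of all genes (2098 called). The causes of these differences were not tested. Depth is unknown, and the 4 decimals limit scores such as those of Smarcc1 and Hdac9.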

Other observations

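The other chromatin genes differed by group. Of 12 genes listed as further bromodomain genes, 8 rose and all 12 had ratios above 1, with a median of 1.54. Over all genes 21.5% rose and 67.1% had a ratio above 1. Taf3, among the 8 (ratio 1.54), encodes no bromodomain, so the label does not hold for the whole list. The median gene length of the 12 was 96.4 kb, and of all genes of at least 60 kb 41.4% rose. After median centring 2 of the 12, Phip and Cecr2, were called higher (limma adjusted p = 0.0221 and 0.0255). The 8 included Phip (ratio 1.73), Brwd3 (1.76) and Trim24 (1.98), named after their values were seen. Trim24 was not called without Control 2 or Control 3 (limma, highest adjusted p = 0.0552). The largest ratio was that of Cecr2, 3.99, from 0.0145, 0.0205 and 0.0133 in controls to 0.0347, 0.0593 and 0.0986 with N40K (limma adjusted p = 0.0268), with a wide spread among the N40K libraries and a call that ended without any control library or N40K 2 (highest 0.0894). Of 18 partners in INO80, SRCAP and TIP60, which had a median length of 20.3 kb, 1 rose, the scaffold gene Trrap (ratio 1.57), and 1 fell, but with median centring or quantile normalization 8 passed as falls, and with centring on the median deviation 4. Of 24 NuRD, Sin3 and co-repressor partners 4 rose (16.7%), of 27 acetyltransferases and their partners 7 (25.9%), of 15 SWI/SNF partners 6 (40%) and of 5 other remodelers 4 (80%), beside 21.5% of all genes. After median centring the rises and falls were 1 and 3, 3 and 3, 2 and 4, and 1 and 0 in the same order. Brwd1, itself a bromodomain gene, was listed with the SWI/SNF partners and is among the 6 that rose (ratio 1.34). Daxx, listed with the 5 other remodelers and not called (ratio 0.944), encodes a histone chaperone, so that label does not hold for the whole list. The differences between the sets were not tested.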
